A study of Homo sapiens with 18 samples.

Results

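The 10 genes described here are RAB27A, RAB27B, RAB32, RAB38, MLPH, SYTL2, SYTL4, SYTL5, MYO5A and MYO5B. They act in the transport of melanosomes and related secretory organelles, RAB32 and RAB38 in the delivery of enzymes to maturing melanosomes. All 10 were taken by gene symbol from the count table, and are 10 of its 58870 genes. The rule goes by name and holds no threshold on a measured value. RNA-seq was performed on 3 human melanoma cell lines, WM164, SKMEL28 and A375, each overexpressing MAFG or GFP, with 3 libraries in each of the 6 groups and 18 libraries in all. MAFG is a small MAF transcription factor. Its Myc-DDK-tagged reading frame was carried by the lentiviral vector pLEB-MAFG, with the EF1α promoter and blasticidin selection, and the control vector pLEGB carried GFP behind the same promoter. Cells of all 6 groups grew in RPMI with 5% FBS. A group is thus a line with one of these vectors. The MAFG and GFP cells of a line differ in the expressed insert and are also separately transduced and selected populations. The number of transductions per vector is not stated, so insert and transduced population cannot be told apart. The labels do not say whether the 3 libraries of a group came from separate cultures, so every p-value measures the spread between these libraries, which may be technical.

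In pigment cells, melanosomes leave microtubules and are held on cortical actin before they are passed to keratinocytes. RAB27A on the melanosome binds melanophilin (MLPH), which in turn holds the motor myosin Va (MYO5A), and loss of any of these leaves pigment clustered around the nucleus. Synaptotagmin-like proteins (SYTL) are other effectors of RAB27 that tether organelles to the plasma membrane, and RAB32 and RAB38 act earlier, in delivering enzymes to the maturing melanosome. RAB27B and MYO5B are paralogs of RAB27A and MYO5A with wide roles in secretion and in recycling of membrane.

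Promoter sequences are shown for MLPH, RAB27A, MYO5B and SYTL5, which are the members called in a MAFG comparison below for which a window was at hand. Each runs 5′ to 3′ on the strand of the gene and covers the 250 bases before an annotated transcript start (RefSeq, GRCh38.p14), and capitals mark a motif that was found. The windows are chr2:237487001-237487250 on the plus strand for MLPH, chr15:55319124-55319373 on the minus strand for RAB27A, chr18:50195148-50195397 on the minus strand for MYO5B and chrX:38006303-38006552 on the plus strand for SYTL5.
MLPH: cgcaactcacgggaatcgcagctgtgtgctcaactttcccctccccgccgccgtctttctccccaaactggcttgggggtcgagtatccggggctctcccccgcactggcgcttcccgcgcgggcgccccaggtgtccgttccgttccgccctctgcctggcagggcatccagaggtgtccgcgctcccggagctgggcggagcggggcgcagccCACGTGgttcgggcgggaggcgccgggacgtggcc
RAB27A: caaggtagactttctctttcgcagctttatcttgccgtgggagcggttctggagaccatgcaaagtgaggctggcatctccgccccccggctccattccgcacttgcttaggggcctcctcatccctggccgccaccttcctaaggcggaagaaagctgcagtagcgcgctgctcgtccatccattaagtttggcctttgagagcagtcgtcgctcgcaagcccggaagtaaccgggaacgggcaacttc
MYO5B: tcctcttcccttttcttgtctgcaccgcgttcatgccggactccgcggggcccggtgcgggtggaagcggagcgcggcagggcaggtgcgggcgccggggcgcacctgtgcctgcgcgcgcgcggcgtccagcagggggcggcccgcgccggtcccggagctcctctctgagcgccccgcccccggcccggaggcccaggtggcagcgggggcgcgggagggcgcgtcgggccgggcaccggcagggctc
SYTL5: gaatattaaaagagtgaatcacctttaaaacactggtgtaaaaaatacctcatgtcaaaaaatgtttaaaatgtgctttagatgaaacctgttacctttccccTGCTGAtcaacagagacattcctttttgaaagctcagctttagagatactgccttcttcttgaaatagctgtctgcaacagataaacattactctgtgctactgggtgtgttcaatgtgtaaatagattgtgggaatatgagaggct
On both strands, 5 motifs were searched. CATGTG and CACGTG are E-box letters of the kind that MITF binds, TGCTGA is the core shared by MAF recognition elements, and TGAGTCA and TGACGTCA are the AP-1 and CRE letters. No 2 of the listed motifs overlap in the windows shown. RefSeq windows were at hand for 8 of the 10 members, with 16 windows in all, of which 4 held a motif; RAB38 and SYTL2 had no entry. The MLPH window held CACGTG 35 bases before the start, and 6.34% of 35116 windows of this length hold it. The SYTL5 window held TGCTGA 147 bases before the start, and 14% of all windows hold it somewhere. A further RAB27A window held TGCTGA at 19 bases and a RAB27B window TGAGTCA at 137 bases before the start, against 14% and 4.2% of all windows. The shares for CATGTG and TGACGTCA were 9.42% and 1.65%. These matches describe letters and are no measure of binding.

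Depth, the sum of gene counts per library, ranged from 20122172 to 39025042 with a median of 31061375, and an SKMEL28 GFP library (replicate 2) was the shallowest. Log CPM values of replicates correlated at 0.984 to 0.994, those of MAFG and GFP libraries of a line at 0.979 to 0.99, and those of different lines at 0.813 to 0.911. MAFG itself was higher in each MAFG library than in each GFP library of its line, by 1.04 on the log2 scale in WM164 (adjusted p = 6.37e-08), 0.64 in SKMEL28 (adjusted p = 0.000128) and 0.80 in A375 cells (adjusted p = 0.0655, edgeR quasi-likelihood test, Benjamini-Hochberg). The A375 value thus did not pass the threshold of 0.05 used throughout. Melanocytic markers (MITF, PMEL, MLANA, TYR, DCT, TYRP1, SOX10, GPR143, TRPM1, SLC45A2) had counts in SKMEL28 and, except TYRP1 with 0 to 5 counts per library, in WM164 cells, while A375 cells had DCT, MLANA and TYR at 3 counts or fewer in every library.

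Levels are given as CPM, counts scaled to a common library size by TMM over the 18 libraries, and genes are compared with each other by the deposited TPM, which accounts for transcript length. In GFP cells of WM164, MYO5A and MLPH stood highest, at 40.1 ± 7.08 and 37.5 ± 6.09 TPM (SD, n = 3), followed by RAB38 at 26.2 ± 3.38 and RAB27A at 24.7 ± 2.93 TPM, and neither pair of neighbours differed beyond its spread. RAB32 (16.1 ± 2.76 TPM) and SYTL2 (7.64 ± 1.11 TPM) came next, and SYTL4, RAB27B and MYO5B were at or under 1.39 TPM. In GFP cells of SKMEL28 the order was another, with MLPH far ahead at 206 ± 15.2 TPM. There, MYO5A (69.3 ± 10.6 TPM) and RAB32 (64.7 ± 5.50 TPM) did not differ beyond their spread, and RAB27A, RAB38 and SYTL2 followed at 41.5 ± 4.32, 28.4 ± 0.441 and 13.2 ± 1.58 TPM. RAB27B, SYTL4 and MYO5B were last, at 2.11 to 2.34 TPM, and did not differ beyond their spread. In GFP cells of A375 no member exceeded the 10.8 ± 2.72 TPM of MYO5A, with RAB32 at 8.27 ± 0.934, MLPH at 6.42 ± 2.38 and MYO5B at 4.17 ± 0.630 TPM. The other A375 levels lay between 0.893 and 2.81 TPM, and SYTL5 was at 0 in the GFP cells of every line. SYTL4 TPM values jumped between libraries of a group, with 0.51, 3.25 and 0.40 in WM164 GFP cells, where its counts were 78, 102 and 56.

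**Figure D1:**
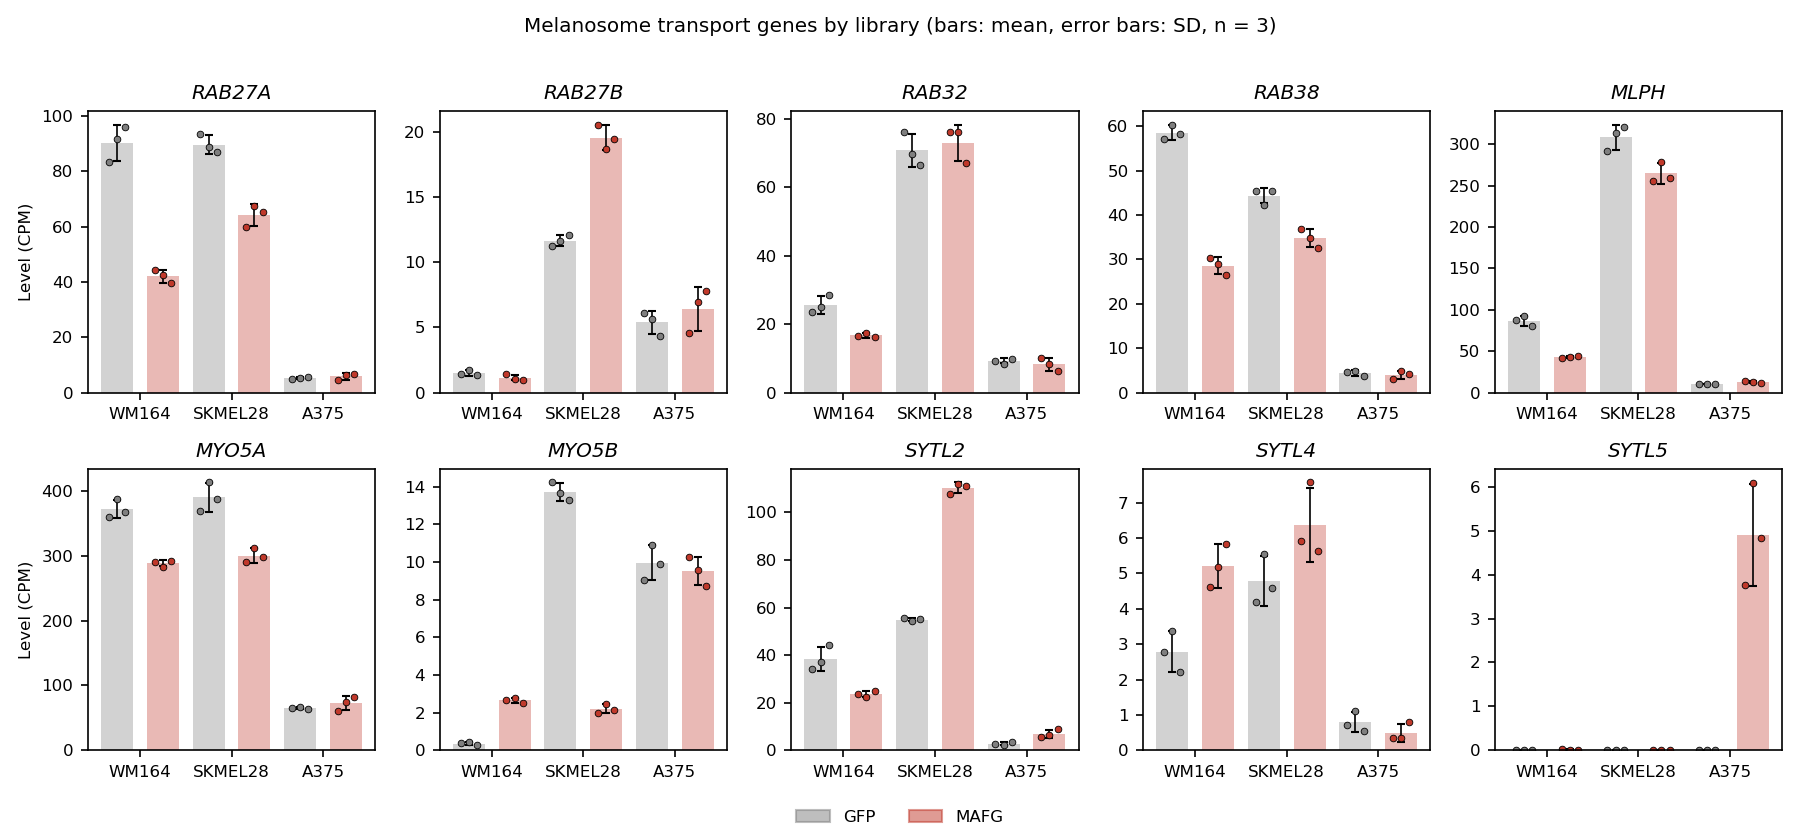
Level of each of the 10 genes in CPM (linear axes from 0, scaled per gene) in every library of the 3 lines, grey for GFP and red for MAFG. Bars are means, error bars SD (n = 3) and points single libraries. MYO5B sits at 13.3 to 14.2 CPM in SKMEL28 GFP cells and at 2.002 to 2.475 in SKMEL28 MAFG cells, and SYTL5 has counts above 1 in A375 MAFG cells alone.

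The first comparison was between the lines themselves, within GFP cells, to show from which levels each line started. The 3 comparisons share the GFP libraries, and SYTL5 entered none of them, because it had 0 counts in all 9 GFP libraries. A gene was called where its adjusted p was at most 0.05 and its log2 difference beyond 1 in either direction. WM164 against SKMEL28 cells gave 4 called members of 9, all lower in WM164, where 28.7% of all 18767 tested genes were called and 13.5% called lower. A375 against WM164 cells gave 9 of 9, 7 lower and 2 higher, where 46.7% of all genes were called, 26% lower and 20.6% higher. A375 against SKMEL28 cells gave 8 of 9, all lower, where 43.8% were called and 24.4% called lower. The members' median log2 difference was -0.77, -2.50 and -2.94 in these 3 comparisons, beside medians of 0, -0.08 and -0.06 over all tested genes.

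Among the RAB genes, RAB27A was at 90.4 ± 6.53 CPM in WM164 and 89.7 ± 3.39 CPM in SKMEL28 GFP cells, a log2 difference of 0.01 with a 95% interval from -0.20 to 0.22. On log2(TPM + 1) and log2(TPM + 0.1) it was -0.73 and -0.75 and passed (adjusted p = 0.00815 and 0.0421, limma), where the median of all genes stood at -0.423 and -0.542. A375 GFP cells held 5.30 ± 0.242 CPM of RAB27A, a log2 difference of -4.09 from WM164 and -4.08 from SKMEL28. RAB27B ran in another order, with 1.498 ± 0.227 CPM in WM164, 5.39 ± 0.897 in A375 and 11.7 ± 0.427 in SKMEL28 GFP cells. Each step of that order was called, WM164 against SKMEL28 at -2.95 (adjusted p = 1.36e-10), A375 against WM164 at 1.84 (9.48e-08) and A375 against SKMEL28 at -1.11 (adjusted p = 1.47e-05, edgeR quasi-likelihood), although the last was at -0.99 without A375 GFP replicate 3. RAB32 and RAB38 were both lowest in A375, at 9.23 ± 0.732 and 4.36 ± 0.610 CPM, although RAB32 was under the fold limit against WM164 in TPM (-0.88 and -0.95). RAB32 was highest in SKMEL28, at 70.9 ± 4.83 CPM against 25.7 ± 2.61 in WM164 (log2 difference -1.47, adjusted p = 3.32e-09, edgeR), whereas RAB38 was at 44.3 ± 1.75 in SKMEL28 and 58.5 ± 1.67 CPM in WM164, a difference of 0.40 (adjusted p = 0.00543, edgeR) that was -0.12 on both TPM scales.

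Among the effectors, MLPH was at 308 ± 15.3 CPM in SKMEL28, 86.6 ± 6.11 in WM164 and 10.2 ± 0.201 in A375 GFP cells. These 3 groups did not overlap, and the log2 difference of A375 from SKMEL28 was -4.91 (adjusted p = 1.14e-20, edgeR quasi-likelihood). SYTL2 followed the same order at 54.9 ± 0.728, 38.5 ± 5.01 and 2.76 ± 0.600 CPM. SYTL4, known from secretory granules, was low in all lines, at 4.78 ± 0.702 CPM in SKMEL28, 2.79 ± 0.586 in WM164 and 0.801 ± 0.285 in A375. Its difference between WM164 and SKMEL28 (-0.77, adjusted p = 0.0243, edgeR) did not pass without WM164 GFP replicate 1 (0.0587), WM164 GFP replicate 3 (0.104) or SKMEL28 GFP replicate 2 (0.09). In TPM no SYTL4 difference between lines passed, with A375 at -0.28 and -0.72 against WM164 (adjusted p = 0.697 and 0.579) and at -0.70 and -1.51 against SKMEL28 (0.32 and 0.248, limma).

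The motor MYO5A was at 372 ± 13.8 CPM in WM164 and 390 ± 21.9 CPM in SKMEL28 GFP cells, a log2 difference of -0.07 with an interval from -0.24 to 0.10, and at 65.6 ± 1.47 CPM in A375. In TPM, MYO5A was lower in WM164 than in SKMEL28 by a difference that passed (-0.78 and -0.79 on the log scales, adjusted p = 0.0123 and 0.0186, limma). MYO5B separated WM164 from both other lines. Its counts were 11, 13 and 7 in WM164 GFP libraries, against 427, 278 and 385 in SKMEL28 and 348, 402 and 355 in A375, so that no WM164 library came near the other lines. The log2 difference was -5.20 for WM164 against SKMEL28 (adjusted p = 8.41e-15) and 4.74 for A375 against WM164 (adjusted p = 9.37e-15, edgeR). A375 was 0.46 below SKMEL28 in CPM (log2 difference -0.46, adjusted p = 0.00601, edgeR) but 0.73 and 0.95 above it on the TPM scales, so the order of these 2 lines depended on the unit.

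**Figure D2:**
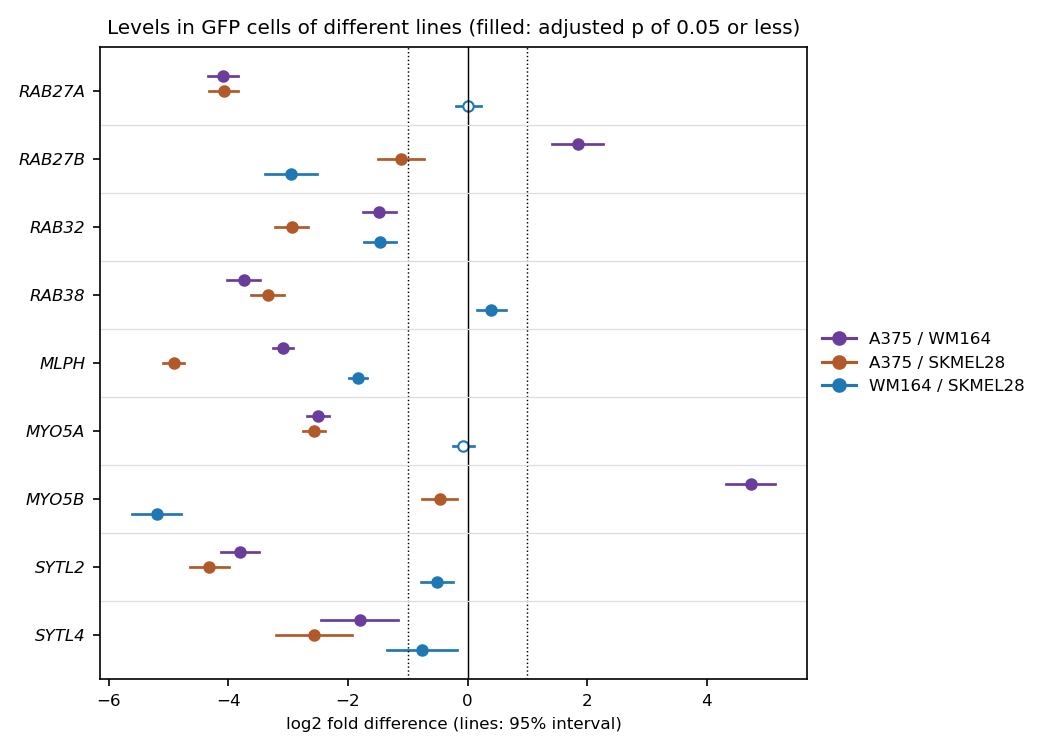
Log2 difference of each member between GFP cells of 2 lines (x axis), with 95% intervals as lines, filled points for an adjusted p of 0.05 or less and dotted lines at -1 and 1. RAB27A, RAB32, RAB38, MLPH, MYO5A, SYTL2 and SYTL4 lie left of -1 in both A375 comparisons, and MYO5B of A375 lies at 4.74 against WM164 and at -0.46 against SKMEL28.

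In WM164 cells, MAFG overexpression went with lower mRNA of the RAB27A, MLPH and MYO5A set and with higher MYO5B. Of 9 tested members, 8 passed an adjusted p of 0.05, 6 of them lower and 2 higher, against 31.8% of all 15919 tested genes (15.6% lower, 16.2% higher). With the limit on fold change, 4 were called (RAB27A, RAB38 and MLPH lower, MYO5B higher), against 6.94% of all tested genes (2% lower, 4.94% higher). For 8 of the 9, the MAFG and GFP libraries did not overlap, as for 43.4% of all tested genes. The members' median log2 change was -0.62, beside -0.00153 over all tested genes. On the TPM scales, where the median of all genes shifted by 0.137 and 0.163, RAB27A, RAB38, MLPH and SYTL2 passed on both, with RAB27A at -0.91 and -0.96, MLPH at -0.85 and -0.88 and RAB38 at -0.81 and -0.85, all short of the fold limit. RAB32, MYO5A and SYTL4 passed on neither TPM scale, and MYO5B was too low there to be tested. SYTL5 was not tested, since its only count in WM164 was 1 in MAFG replicate 1. In bulk RNA, fewer cells that express a gene and less of its RNA per cell cannot be told apart, here as in the other lines.

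RAB27A was at 83.3, 91.6 and 96.2 CPM in GFP and at 44.2, 42.5 and 39.5 CPM in MAFG libraries of WM164. Every MAFG library was below every GFP library, and the log2 change was -1.10 (SE 0.07, adjusted p = 1.03e-09, edgeR quasi-likelihood test with Benjamini-Hochberg). RAB38, the melanosome RAB of enzyme delivery, was at 57.1, 60.4 and 58.2 CPM with GFP and at 30.2, 29.1 and 26.4 CPM with MAFG. Again the groups stood apart (log2 change -1.04, SE 0.07, adjusted p = 4.26e-09, edgeR). Its paralog RAB32 fell less, from 23.6, 24.9 and 28.6 CPM to 16.6, 17.6 and 16.2 CPM (log2 change -0.62, SE 0.09, adjusted p = 4.73e-05, edgeR). RAB27B had 34 to 53 counts with GFP and 29 to 40 with MAFG. These ranges overlapped, and its log2 change of -0.38 had an interval from -1.12 to 0.36 (adjusted p = 0.459, edgeR). The call for RAB38 sat at the fold limit, with a log2 change of -0.99 without MAFG replicate 3.

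The linker MLPH was at 87.5, 92.2 and 80.1 CPM with GFP and at 41.3, 42.5 and 43.9 CPM with MAFG in WM164 cells. No libraries overlapped, and the log2 change was -1.03 (SE 0.07, adjusted p = 1.49e-09, edgeR), or -0.98 and thus under the fold limit without GFP replicate 2. SYTL2 fell from 34.4, 37.1 and 44.1 CPM to 23.6, 22.6 and 24.9 CPM (log2 change -0.70, SE 0.09, adjusted p = 1.15e-05, edgeR). SYTL4 moved the other way, from 2.78, 3.38 and 2.21 CPM to 4.62, 5.17 and 5.84 CPM, with no overlap. Its log2 change was 0.89 (SE 0.20, adjusted p = 0.00226, edgeR), which passed the test without reaching the fold limit, and was 1.05 without GFP replicate 2. SYTL4 overlaps SRPX2 on the opposite strand, and its count may hold reads of that gene if strand was not used.

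The motors of WM164 parted. MYO5A was at 360, 387 and 368 CPM with GFP and at 290, 283 and 292 CPM with MAFG, without overlap, a log2 change of -0.37 (SE 0.05, adjusted p = 2.07e-05, edgeR). MYO5B rose from 0.393, 0.431 and 0.277 CPM to 2.695, 2.772 and 2.503 CPM, which is 7 to 13 counts against 75 to 81. All MAFG libraries were thus far above all GFP libraries, with a fitted change of 7.11-fold (log2 2.83, SE 0.36, adjusted p = 7.69e-06, edgeR). Even so, the WM164 MAFG level of MYO5B, 0.380 ± 0.125 TPM, stayed under that of MYO5A at 34.3 ± 1.54 TPM. Melanocytic markers moved alongside these genes in WM164: 8 of 9 tested markers fell, and their summed level went from 4614 to 4979 CPM in GFP libraries to 2452 to 2603 CPM in MAFG libraries. MITF fell by 0.65 on the log2 scale (adjusted p = 1.55e-08, edgeR). The part of the markers in these changes was not tested.

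**Figure D3:**
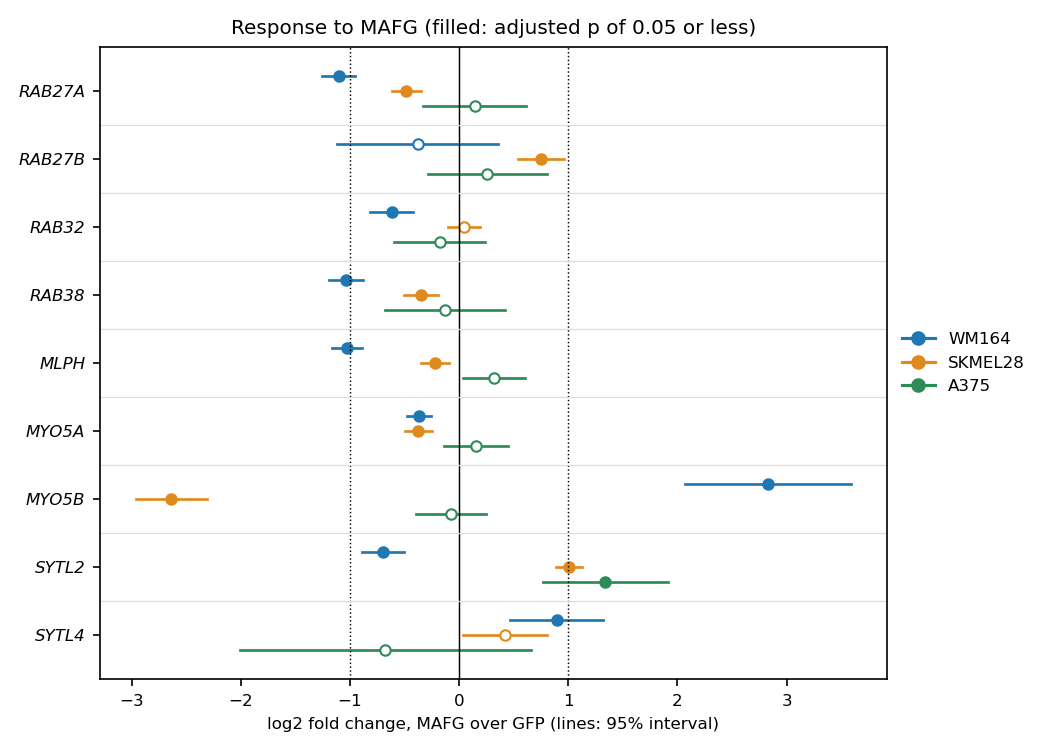
Log2 fold change of MAFG over GFP for 9 members in each line (x axis), with 95% intervals as lines, filled points for an adjusted p of 0.05 or less and dotted lines at -1 and 1. SYTL5, with 0 counts in A375 GFP cells, is left out. MYO5B lies at 2.83 in WM164, at -2.64 in SKMEL28 and at -0.07 in A375 cells.

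In SKMEL28 cells, MAFG went with a large fall of MYO5B, a rise of SYTL2 and RAB27B, and smaller falls of RAB27A, RAB38, MLPH and MYO5A. Of 9 tested members, 7 passed the test, 5 lower and 2 higher, against 29.9% of all 15523 tested genes (15.3% lower, 14.6% higher). MYO5B (lower) and SYTL2 (higher) were called, 2 members against 4.74% of all tested genes (2.98% lower, 1.76% higher). For 8 of the 9, the groups of libraries did not overlap, as for 43% of all tested genes. The members' median log2 change was -0.22, beside -0.008 over all tested genes. On the TPM scales the 7 members that passed did so again, except RAB27B, with SYTL2 at 0.74 and 0.78 and so under the fold limit and MYO5B at -1.23 and -2.43. SYTL5 had 0 counts in all 6 SKMEL28 libraries.

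MYO5B, the motor of recycling endosomes, was at 14.2, 13.7 and 13.3 CPM with GFP and at 2.002, 2.475 and 2.139 CPM with MAFG in SKMEL28 cells. The groups were far apart, with 278 to 427 counts against 57 to 69, and the level was 6.22-fold lower with MAFG (log2 change -2.64, SE 0.15, adjusted p = 4.37e-09, edgeR). MYO5A was at 369, 413 and 387 CPM with GFP and at 290, 312 and 298 CPM with MAFG. It fell by 0.38 on the log2 scale (SE 0.06, adjusted p = 0.000146, edgeR), close to its change of -0.37 in WM164. Protein-coding neighbours of MYO5B were looked at after its values were seen. CFAP53, 32 kb to its right and the nearest on that side, had 2 to 8 counts with GFP and 0 to 2 with MAFG in SKMEL28, 0 to 3 and 1 to 9 in WM164 and 15 to 49 and 34 to 58 in A375, too few in SKMEL28 and WM164 to size a change. ACAA2, which lies 8.84 kb to its left, had 389 to 550 counts with GFP and 321 to 443 with MAFG, and MBD1, 71.7 kb to its right, had 901 to 1360 and 954 to 1112. The ranges of ACAA2 and MBD1 overlapped. These are raw counts not scaled for depth, and the SKMEL28 GFP libraries include the shallowest of all. The overlap therefore does not show whether these neighbours changed.

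SYTL2, a RAB27 effector, was at 55.6, 54.2 and 55.0 CPM with GFP and at 108, 112 and 111 CPM with MAFG in SKMEL28 cells. Every MAFG library held about the same higher level, and the fold change was 2.01 (log2 1.01, SE 0.06, adjusted p = 3.42e-09, edgeR), just past the fold limit. It was at log2 0.992 without GFP replicate 2 and 0.995 without MAFG replicate 2, both under the limit of 1. MLPH fell slightly, from 291, 313 and 321 CPM to 255, 279 and 260 CPM, without overlap (log2 change -0.22, SE 0.06, adjusted p = 0.0102, edgeR), and did not pass without MAFG replicate 1 (adjusted p = 0.0608). SYTL4 had a log2 change of 0.42 with adjusted p = 0.0919 (edgeR), from 4.20 to 5.56 CPM with GFP to 5.63 to 7.57 CPM with MAFG.

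The RAB genes of SKMEL28 parted by paralog. RAB27A fell from 93.4, 88.8 and 86.8 CPM to 59.9, 67.4 and 65.2 CPM (log2 change -0.48, SE 0.06, adjusted p = 3.07e-05, edgeR). RAB27B rose from 11.3, 11.6 and 12.1 CPM to 20.6, 18.7 and 19.5 CPM (log2 change 0.75, SE 0.10, adjusted p = 3.69e-05, edgeR), again with no overlap. In TPM, RAB27B changed by 0.19 and 0.27 on the 2 log scales and passed on neither, so its rise rests on the counts. RAB38 fell by 0.35 on the log2 scale (SE 0.07, adjusted p = 0.00185, edgeR), from 42.3 to 45.4 CPM to 32.7 to 36.8 CPM. RAB32 stayed between 66.7 and 76.2 CPM in both groups, with a log2 change of 0.04 and an interval from -0.10 to 0.19. Summed melanocytic markers went from 4809 to 5082 CPM to 4034 to 4303 CPM, with 4 of 10 lower and 1 higher, and MITF fell by 0.20 on the log2 scale (adjusted p = 0.00967, edgeR). Their part in the members' changes was not tested.

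In A375 cells, 2 members passed the test, SYTL5 and SYTL2, and both rose. All 10 members were tested there and both were called, against 0.665% of all 15779 tested genes, or 0.646% called higher. The share of all genes that passed without the fold limit was 0.843%. The groups of libraries did not overlap for 3 of the 10 members, as for 12.3% of all tested genes. The members' median log2 change was 0.15, with SYTL5 at its bound or at its fitted value, beside -0.000372 over all tested genes.

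SYTL5, an X-linked member of the synaptotagmin-like family, had 0, 0 and 0 counts in the GFP libraries of A375 and 149, 230 and 208 counts in the MAFG libraries. That is 3.77, 6.09 and 4.84 CPM where each GFP library allowed no more than 3 counts, so the level was at least 60.4-fold higher, computed against 3 counts per library (adjusted p = 0.000216, edgeR). In TPM it reached 0.50, 1.07 and 0.79 with MAFG, and A375 MAFG cells were the only group in which the gene was above 1 count in any library. Neighbouring genes were looked at after these values were seen. H2AP and H2AL3, which lie 15.2 and 11.7 kb from SYTL5, had 0 counts in all 18 libraries. SRPX, 20.5 kb on the other side, had 303 to 307 counts with GFP and 540 to 683 with MAFG in A375, and DYNLT3, 159 kb away, had 464 to 700 and 830 to 1197. RPGR, 140 kb away on the side of SRPX, had 306 to 369 and 303 to 621, which overlapped. Higher counts with MAFG were not limited to A375. In WM164, SRPX had 3732 to 4477 and 5101 to 5594 counts, DYNLT3 943 to 1115 and 1852 to 2466, and RPGR 251 to 305 and 543 to 751. In SKMEL28 the raw ranges overlapped, at 2737 to 4362 and 3461 to 4074 for SRPX and 1072 to 1922 and 1895 to 2108 for DYNLT3. Those of RPGR, 277 to 409 and 335 to 428, overlapped too. The counts of these neighbours were not scaled for depth. A readthrough gene that overlaps SYTL5 on the same strand had 0 counts in all A375 libraries.

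SYTL2 was at 2.56, 2.28 and 3.43 CPM with GFP and at 5.56, 6.55 and 8.82 CPM with MAFG in A375 cells. The groups did not overlap, and the log2 change of 1.34 (SE 0.26) had an adjusted p of 0.0442 (edgeR quasi-likelihood). This call was not stable. It was lost without any of 5 of the 6 libraries, at adjusted p of 0.212, 0.248 and 0.0779 without GFP replicate 1, 2 or 3 and 0.164 and 0.155 without MAFG replicate 2 or 3, and held without MAFG replicate 1 (adjusted p = 0.00551, edgeR). It was also lost with at least 10 counts asked of every library (0.0504) and in limma on TPM (0.407 and 0.481), and kept with DESeq2 (0.0014) and in the model of all 18 libraries (adjusted p = 1.09e-05).

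For the other A375 members no change passed. RAB27A was at 5.03 to 5.50 CPM with GFP and 4.499 to 6.606 CPM with MAFG, with an interval of the log2 change from -0.33 to 0.61. MLPH was at 9.999 to 10.37 CPM with GFP and 11.9 to 13.5 CPM with MAFG, without overlap, and its log2 change of 0.32 had an adjusted p of 0.665, or 0.0256 when all 18 libraries shared 1 model (edgeR). MYO5A (interval -0.14 to 0.45), MYO5B (-0.39 to 0.25), RAB32 (-0.59 to 0.24), RAB38 (-0.67 to 0.42) and RAB27B (-0.28 to 0.80) stayed within their GFP ranges or overlapped them. SYTL4 had 20 to 41 and 13 to 34 counts, too few to narrow its interval of -2.01 to 0.65. Among the melanocytic markers, 1 of 3 tested rose, SOX10, from 8.85 ± 2.35 to 114 ± 24.5 CPM (log2 change 3.68, adjusted p = 2.12e-05, edgeR), and the summed level went from 36.2 to 42.1 CPM to 119.6 to 173 CPM. Their part in the rise of SYTL5 and SYTL2 was not tested.

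Whether the response to MAFG differed between lines was tested as a difference of log2 changes in 1 edgeR model of all 18 libraries, and these 3 comparisons share libraries. WM164 minus SKMEL28 gave 3 called members, 1 higher and 2 lower, beside 5.1% of all tested genes (3.59% higher, 1.51% lower). A375 minus WM164 gave 5, 3 higher and 2 lower, beside 4.39% (2.17% higher, 2.21% lower), and A375 minus SKMEL28 gave 1, higher, beside 4.2% (3.09% higher). Without the fold limit, 7, 7 and 4 members passed, beside 13.7%, 9.21% and 9.51% of all tested genes. The median difference over the members other than SYTL5 was -0.66, 0.64 and 0.34, beside 0.0249, 0.0139 and 0.03 over all tested genes. For SYTL5 this model gave no usable error. SYTL5 was at 3 counts or fewer in every WM164 and SKMEL28 library. Its response there cannot be sized, nor can a difference from it. DESeq2 gave adjusted p = 0.000762 for A375 against WM164 and 0.000153 for A375 against SKMEL28, which are therefore not read as a difference of responses.

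On counts, MYO5B differed in every pair of lines. Its log2 change was higher in WM164 than in SKMEL28 by 5.46 (SE 0.26, adjusted p = 9.8e-12), lower in A375 than in WM164 (difference -2.89, SE 0.26, adjusted p = 9.17e-08) and higher in A375 than in SKMEL28 by 2.57 (SE 0.21, adjusted p = 4.76e-08, edgeR). The A375 minus WM164 difference was -0.46 and -1.52 on log2(TPM + 1) and log2(TPM + 0.1) and did not pass there (adjusted p = 0.149 and 0.0779, limma). SYTL2 differed between WM164, where it fell, and both lines where it rose, by -1.70 for WM164 minus SKMEL28 (adjusted p = 1.28e-06) and 2.04 for A375 minus WM164 (adjusted p = 6.05e-07, edgeR). Between A375 and SKMEL28 its difference was 0.34 with an interval from -0.08 to 0.76. MYO5A gave no sign of a difference between WM164 and SKMEL28 (0.01, interval -0.23 to 0.25).

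RAB27A fell more in WM164 than in SKMEL28, by a log2 difference of -0.62 (adjusted p = 0.00529, edgeR), and so did RAB32 (-0.66, 0.0157), RAB38 (-0.69, 0.00698) and MLPH (-0.80, 1.03e-05), all under the fold limit. None of these 4 passed in TPM, where on the same log scales they were -0.26 and -0.29 for RAB27A (adjusted p = 0.615 and 0.704), -0.28 and -0.30 for RAB32 (0.389 and 0.394), -0.30 and -0.32 for RAB38 (0.401 and 0.508) and -0.53 and -0.55 for MLPH (0.177 and 0.214, limma). The median difference of all genes stood at 0.262 and 0.329 on these TPM scales, beside 0.0249 on counts. On counts, RAB32 did not pass without WM164 GFP replicate 3 (adjusted p = 0.0578, edgeR). RAB27B differed by -1.13 (adjusted p = 0.0133, edgeR) and did not pass without WM164 GFP replicate 2 (-0.997, adjusted p = 0.0531) or in TPM (-0.16 and -0.27, adjusted p = 0.797 and 0.849, limma). A375 differed from WM164 in RAB27A by 1.25 (adjusted p = 1.44e-05), in MLPH by 1.35 (2.16e-08), in RAB38 by 0.91 (0.00221) and in MYO5A by 0.52 (adjusted p = 0.00602, edgeR). In TPM, the MLPH difference passed, while RAB27A (0.859 and 0.858, adjusted p = 0.101 and 0.252), RAB38 (0.61 and 0.57, 0.116 and 0.263) and MYO5A (0.19 and 0.19, 0.786 and 0.805, limma) did not. There the median of all genes stood at -0.209 and -0.261, beside 0.0139 on counts. A375 minus SKMEL28 passed under the fold limit for RAB27A (0.63, adjusted p = 0.0139), MLPH (0.55, 0.00186) and MYO5A (0.53, adjusted p = 0.0056, edgeR), and in TPM for none of them (adjusted p of 0.35 and 0.595, 0.242 and 0.278, and 0.572 and 0.634, limma). For SYTL4 the difference of A375 from WM164 was -1.57 (adjusted p = 0.0273, edgeR), and 6 of the 12 libraries each took it past 0.05 when left out, WM164 GFP replicates 1 and 3 (0.0541, 0.0712), WM164 MAFG replicates 2 and 3 (0.0505, 0.0668), A375 GFP replicate 2 (0.106) and A375 MAFG replicate 2 (0.0661). It also did not pass in TPM (-0.61 and -1.48, adjusted p = 0.711 and 0.622, limma).

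Because RAB27A and RAB27B, RAB38 and RAB32, and MYO5A and MYO5B are related pairs, the share of each pair's summed TPM was computed per library. An exact two-sided permutation test of 3 against 3 libraries cannot go below 0.1, so it could not reach 0.05, and no other test of the shares was run. MYO5A made up 97.05% ± 0.112 (SD, n = 3) of its pair in SKMEL28 GFP cells and 99.34% ± 0.344 with MAFG, while in WM164 it went from 99.75% ± 0.270 to 98.91% ± 0.332. The groups did not overlap in either line, and the directions were opposite. RAB27A held 98.9% ± 0.550 and 97.5% ± 2.29 of its pair in WM164 GFP and MAFG cells, which overlapped, and 94.7% ± 1.42 and 90.3% ± 2.40 in SKMEL28, which did not. RAB38 held 61.9% ± 2.19 and 55.1% ± 1.54 in WM164, and 30.6% ± 1.55 and 25.1% ± 0.684 in SKMEL28, without overlap in either. In A375 the GFP and MAFG libraries overlapped for all 3 pairs, with RAB27A at 68.8% and 70.4%, RAB38 at 25.3% and 26.0% and MYO5A at 71.7% and 73.0%. The A375 shares of RAB27A (51.5 to 81.7%) and MYO5A (60.5 to 80.1%) lay below those of every library of the other lines, which were at least 88.4% and 96.9%.

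**Figure D4:**
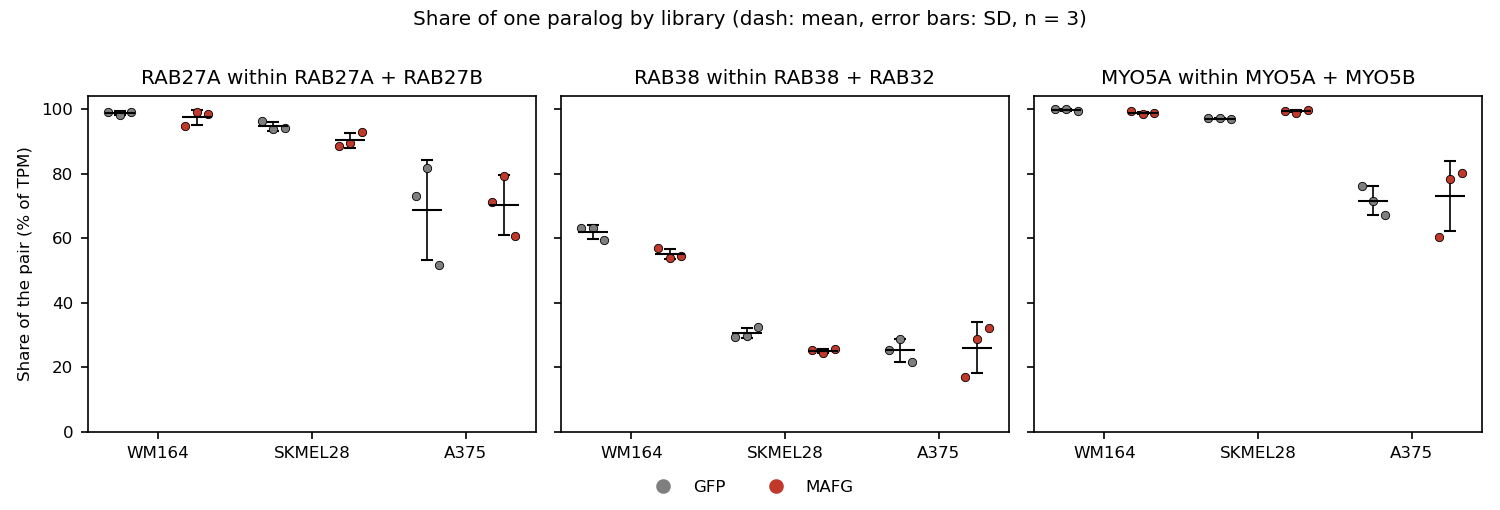
Share of RAB27A, RAB38 and MYO5A in the TPM sum of each paralog pair (y axis, % of TPM from 0) for every library, grey for GFP and red for MAFG, with dashes for means and error bars for SD (n = 3). RAB38 is the larger member of its pair in WM164 cells (59.4 to 63.2% with GFP) and the smaller one in SKMEL28 and A375 cells.

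Other genes of the pathway were taken from 4 lists. Of the other RAB27 effectors (SYTL1, SYTL3, EXPH5, MYRIP, UNC13D, RPH3A, RPH3AL), 4 were tested in WM164 and none passed, 1 of 4 rose in SKMEL28 and 0 of 6 passed in A375. Of the genes that activate, inactivate or prenylate RAB27 (MADD, TBC1D10A, TBC1D10B, TBC1D10C, CHM, CHML, RABGGTA, RABGGTB), 7 were tested per line. In WM164, 1 rose and 1 fell, in SKMEL28 2 rose and 3 fell, and in A375 0 passed. Of 22 genes of the BLOC complexes, AP-3 and partners of RAB32 and RAB38, which sort cargo to melanosomes, 8 fell and 0 rose in WM164, 2 fell and 1 rose in SKMEL28, and 0 passed in A375. Of the other motors, adaptors and track proteins, 6 of 17 fell and 1 rose in WM164, 4 of 16 fell and 3 rose in SKMEL28, and 0 of 18 passed in A375. None of the 4 lists had a called gene in any line. Of all tested genes, 6.94%, 4.74% and 0.665% were called in WM164, SKMEL28 and A375. In A375, where 0 list genes passed, 0.843% of all tested genes did. The shares of tested list genes that passed in WM164, where 31.8% of all genes did, were 0% of effectors, 28.6% of RAB27 regulators, 36.4% of BLOC and AP-3 genes and 41.2% of motors and adaptors. By direction, 15.6% of all genes passed lower and 16.2% higher there, while the BLOC and AP-3 genes that passed were all lower. In SKMEL28, where 29.9% of all genes passed, they were 25%, 71.4%, 13.6% and 43.8%, and the 71.4% stands for 5 of 7 genes that moved both ways.

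The list medians in WM164 were -0.06 for other effectors, -0.05 for RAB27 regulators, -0.10 for BLOC and AP-3 genes and -0.20 for motors and adaptors. The genes named next were chosen after their values were seen. HPS4, a subunit of the exchange factor for RAB32 and RAB38, fell by 0.80 on the log2 scale in WM164 (adjusted p = 3.47e-08) and DTNBP1, a BLOC-1 subunit, by 0.84 (adjusted p = 7.22e-07, edgeR). MREG, which acts in moving melanosomes along microtubules, fell by 0.77 in WM164 (adjusted p = 2.22e-06, edgeR). FMN1, an actin nucleator that works with SPIRE proteins on myosin V tracks, fell in both WM164 (-0.69, adjusted p = 9.85e-09) and SKMEL28 (-0.76, adjusted p = 4.13e-06, edgeR). RABGGTA and RABGGTB, the subunits of the enzyme that prenylates RAB proteins, fell by 0.64 and 0.47 in SKMEL28 (adjusted p = 0.000594 and 1.61e-05, edgeR). Genes of the same RAB27 regulator list also rose. CHM and CHML rose by 0.43 and 0.27 in SKMEL28 (adjusted p = 0.000315 and 0.00725, edgeR). MADD rose by 0.56 in WM164 (adjusted p = 1.32e-05, edgeR).

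Levels of epithelial and fibroblast markers were low. The sum of each list did not overlap between MAFG and GFP libraries in WM164 and SKMEL28, lower with MAFG in WM164 and higher in SKMEL28. Epithelial markers (EPCAM, KRT5, KRT14, KRT19, CLDN4, ESRP1) summed to 8.57 to 10.9 CPM with GFP and 5.56 to 6.28 CPM with MAFG in WM164, 9.74 to 10.01 and 16.7 to 18.4 CPM in SKMEL28, and 0.251 to 0.516 and 0.419 to 1.26 CPM in A375, with KRT19 at 3 counts or fewer in every library. Fibroblast markers (COL1A1, COL1A2, LUM, DCN, PDGFRB) summed to 20.02 to 20.6 CPM with GFP and 12.6 to 13.3 CPM with MAFG in WM164, where COL1A2 and PDGFRB rose and LUM fell, to 11.03 to 12.4 and 18.3 to 21.3 CPM in SKMEL28, where LUM rose, and to 10.7 to 13.3 and 11.6 to 13.6 CPM in A375. Of the markers of dedifferentiated melanoma cells (AXL, NGFR, EGFR, SOX9, WNT5A, FN1), 4 of 6 rose and 1 fell with MAFG in WM164, 3 rose in SKMEL28 and 1 rose in A375. Their sum is mostly FN1 in WM164 and SKMEL28 (9371 ± 491 and 8715 ± 306 CPM with GFP), so it is not used to compare lines. AXL was at 3.29 ± 0.964 CPM in WM164, 0.589 ± 0.130 in SKMEL28 and 633 ± 26.4 in A375 GFP cells. Of the 6 markers, 4 were higher and 2 lower in A375 than in SKMEL28 GFP cells. Against WM164 GFP cells, 3 were higher and 2 lower in A375. The part of all these markers in the members' changes was not tested.

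As a description, each member was set beside the genes whose log CPM ran most like its own over the 18 libraries, which fall into 3 clusters by line. RAB27A ran with SCML4 and SLC45A2 (Pearson's r of 0.996 for both), the second of which is a melanosomal transporter, and with ADCY2 (0.994). RAB38 ran with IGSF11 and RAB27A (0.997 and 0.993), and MYO5A with ST6GALNAC2, RAB27A and BIRC7 (0.994, 0.993 and 0.993). RAB27A was thus among the 3 nearest genes of both RAB38 and MYO5A. MLPH ran with KCNAB2, PLXNC1 and BCAS3 (0.998, 0.995 and 0.995), RAB32 with PPP1R3D, LINC00520 and CELF2 (0.991, 0.99 and 0.99) and RAB27B with CEP78, TGOLN2 and NUFIP2 (0.986, 0.983 and 0.983). SYTL2 ran with CIT, WRB and ROPN1 (0.983, 0.981 and 0.979), SYTL4 with MFAP3L, PPP1R14C and CCNT2 (0.979, 0.976 and 0.972) and SYTL5 with FDCSP, RUNX1T1 and SULT1B1 (0.993, 0.982 and 0.972). SYTL5 was above 3 counts in A375 MAFG libraries alone, so its r values rest on those libraries against all others. MYO5B had the least like neighbours, EMB, RTN4 and GADD45A (0.964, 0.961 and 0.959).

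In the genome (GRCh38, GENCODE release 44), the members lie on 6 chromosomes. RAB27A (ENSG00000069974.16) is at chr15:55202966-55319113 on the minus strand and MYO5A (ENSG00000197535.14) at chr15:52307281-52529132 on the same strand, 2.90 Mb apart by their left ends. RAB27B (ENSG00000041353.10) at chr18:54717860-54895516 on the plus strand and MYO5B (ENSG00000167306.20) at chr18:49822789-50195164 on the minus strand are 4.89 Mb apart. RAB38 (ENSG00000123892.12) at chr11:88113251-88175443 and SYTL2 (ENSG00000137501.17) at chr11:85694224-85811159, both on the minus strand, are 2.42 Mb apart. SYTL4 (ENSG00000102362.15) is at chrX:100671783-100732123 on the minus strand and SYTL5 (ENSG00000147041.12) at chrX:38006553-38128819 on the plus strand. MLPH (ENSG00000115648.14) is at chr2:237485428-237555322 and RAB32 (ENSG00000118508.5) at chr6:146543833-146554953, both on the plus strand. RAB27A overlaps PIGBOS1 on its own strand and PIGB on the other, and MYO5B overlaps SNHG22 on the other strand, so reads there may have been left out of, or shared between, these genes. RAB32 and SYTL2 overlap no annotated gene.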

How the data were processed

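RNA-seq data of 18 libraries were used, from 3 lines with MAFG or GFP overexpression (3 per group, groups from the labels). The authors trimmed reads with cutadapt 1.8.1, aligned them with STAR 2.7.7a to GRCh38 and used featureCounts on reads with a unique alignment, and the deposited count values are whole numbers without normalization. The deposited TPM values were made by the authors, whose processing notes name RSEM 1.3.0. The labels name a non-stranded library kit and the methods a strand-specific one, and use of strand in counting is not given in the sources used here. All sample columns were assigned, leaving 0.

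The 10 members and every list were chosen with earlier results of these data known. MAFG was compared with GFP on counts of the 6 libraries of each line with edgeR 4.0.16 (R 4.3.3, TMM, filterByExpr, quasi-likelihood test, Benjamini-Hochberg over all tested genes), with calls at adjusted p ≤ 0.05 and more than a 2-fold change. Lines and responses were compared in 1 such model of all 18 libraries. A gene at 3 counts or fewer per library was treated as at the floor, which covers counting error only. Mean chi-square per gene between replicates was 5.9 to 96.7 over 18 pairs, above sampling noise. Scripts were tested on simulated data. Alternatives were DESeq2 1.42.0 (the study's own tool), its size factors, no filter, at least 10 counts in every library, limma 3.58.1 on log2(TPM + 1) and log2(TPM + 0.1) (genes at 1 TPM or more in 3 libraries), no fold limit, a replicate block, all 18 libraries in 1 model, and each library left out. Named are all members, MAFG and MITF, the 3 genes most correlated with each member and, from lists, up to 3 called genes per line. No gene of the pathway lists was called, and some that were not called are named after their values were seen. A marker list and a correlated gene are not reported here. Figures were drawn with matplotlib 3.10.9. Protein sequences were not used here.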

Additional observations from a re-analysis of the deposited data

Results flagged for a closer look

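For 9 responses of 6 members, the log2 change with MAFG differed between lines when that difference itself was tested (edgeR model of 18 libraries, Benjamini-Hochberg over 18767 genes, log2 difference beyond 1). MYO5B differed most, by 5.465 for WM164 minus SKMEL28 (adjusted p = 9.8e-12), -2.893 for A375 minus WM164 (9.17e-08) and 2.572 for A375 minus SKMEL28 (4.76e-08, edgeR), and in WM164 it rested on 7 to 13 counts per GFP library. SYTL2 differed by -1.703 for WM164 minus SKMEL28 (adjusted p = 1.28e-06) and 2.042 for A375 minus WM164 (6.05e-07, edgeR). RAB27A and MLPH differed between A375 and WM164 by 1.245 (adjusted p = 1.44e-05) and 1.351 (2.16e-08, edgeR). RAB27B differed by -1.133 for WM164 minus SKMEL28 (adjusted p = 0.0133, edgeR), with 29 to 53 counts per WM164 library. SYTL4 differed by -1.567 for A375 minus WM164 (adjusted p = 0.0273, edgeR), with 13 to 41 counts per A375 library. Of these 9, 4 did not pass in limma on either TPM scale, MYO5B and RAB27A for A375 minus WM164 (adjusted p = 0.149 and 0.0779, and 0.101 and 0.252), RAB27B for WM164 minus SKMEL28 (0.797 and 0.849) and SYTL4 (0.711 and 0.622). In groups of 3 libraries, single deviating libraries were not tested for.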

How the results depend on the processing

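The number of called members moved with the processing as follows. With no fold limit it was 8 in WM164, 7 in SKMEL28, 7 for GFP cells of WM164 against SKMEL28, and 7 and 4 for the response differences WM164 minus SKMEL28 and A375 minus SKMEL28. With limma on log2(TPM + 1) and log2(TPM + 0.1), it was 0 and 0 in WM164, 1 and 1 in SKMEL28, 0 and 0 in A375 and 2 and 2 for A375 minus WM164. With at least 10 counts in every library, A375 and A375 minus SKMEL28 gave 0, because this filter drops SYTL5 (0 counts with GFP) from the first and MYO5B (7 counts in a WM164 library) from the second, with SYTL2 in A375 at adjusted p = 0.0504 (edgeR). DESeq2 gave 2 for A375 minus SKMEL28, where it added SYTL5, whose response in SKMEL28 cannot be sized. With each library left out in turn, the counts were 3 to 4 in WM164, 1 to 2 in SKMEL28 and 1 to 2 in A375, 4 to 4, 9 to 9 and 7 to 8 for the lines (WM164 against SKMEL28, A375 against WM164, A375 against SKMEL28), and 2 to 3, 4 to 6 and 1 to 2 for the response differences in the same order. Without MAFG replicate 3 of A375, SYTL4 joined the calls for A375 minus SKMEL28 (-1.61, adjusted p = 0.0186, edgeR), and without MAFG replicate 1, RAB38 joined those for A375 minus WM164 (1.07, 2.85e-05).

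Some values changed sign. On log2(TPM + 1) and log2(TPM + 0.1), the change was -0.13 and -0.14 for RAB32 in SKMEL28, -0.051 and -0.099 for RAB27A and -0.012 and -0.021 for MYO5A in A375. On these scales the line difference of WM164 from SKMEL28 was -0.73 and -0.75 for RAB27A, which passed, and -0.12 and -0.12 for RAB38, that of A375 from SKMEL28 was 0.73 and 0.95 for MYO5B, and the response difference A375 minus WM164 was -0.077 and -0.12 for RAB27B. On log2(TPM + 1), the response difference WM164 minus SKMEL28 of SYTL4 was -0.019. TPM moved the median of all genes to -0.42 and -0.54 for WM164 against SKMEL28. For MAFG against GFP it stood at -0.143 and -0.165 in SKMEL28 and at -0.103 and -0.119 in A375. The median was -0.0516 and -0.0741 for A375 against SKMEL28 and -0.209 and -0.261 for the response difference A375 minus WM164. For WM164 minus SKMEL28 it was 0.262 on log2(TPM + 1), in the direction opposite to SYTL4. RAB38 in A375 ranged from -0.29 to 0.057 over left-out libraries, above 0 without MAFG replicate 1. The line difference WM164 minus SKMEL28 of RAB27A ranged from -0.038 to 0.066, with -0.00031, -0.038, -0.00042 and -0.015 without WM164 GFP replicate 2 or 3 or SKMEL28 GFP replicate 2 or 3. The response difference WM164 minus SKMEL28 of MYO5A was -0.014 without a filter, and ranged from -0.032 to 0.045 over left-out libraries, with -0.013, -0.032 and -0.013 without WM164 GFP replicate 1, SKMEL28 GFP replicate 2 or SKMEL28 MAFG replicate 1. The cause was not tested.

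The replicate numbers did not pair the samples, since same-numbered MAFG and GFP libraries of a line correlated at -0.112 to 0.0329 in their deviations. With the number as a replicate block, 4, 2 and 1 members were called in WM164, SKMEL28 and A375, and 1056, 716 and 64 genes in all. The block put the A375 change of SYTL2 (adjusted p = 0.0597) and the response differences of RAB27B for WM164 minus SKMEL28 (0.0518) and SYTL4 for A375 minus WM164 (0.0707, edgeR) past 0.05. Depth limited SYTL5, MYO5B, RAB27B and SYTL4 most, with 0 to 53 counts in some groups.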
